A study of Mus musculus with 48 samples.

Results

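The Hox genes of the 4 mouse clusters, Hoxa, Hoxb, Hoxc and Hoxd, were followed along the aorta. The members were the 38 Hox genes named for this purpose, each read on the probe set of its own symbol with the highest mean over all arrays. Of these, 36 had a probe set that carried no other gene symbol, out of 22180 such genes on the array. Hoxa11 and Hoxd4 were only on probe sets that carry several symbols, and they were kept apart.

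RNA was taken from the ascending aorta (AA) and the descending aorta (DA) of mice on embryonic day 17.5 (E17.5) or postnatal day 1 (P1). Knockouts (KO) of Eln (elastin), Efemp2 (fibulin-4, a matrix protein of elastic fibres) and Lox (lysyl oxidase, which cross-links elastin) were each taken with wild types (WT) of the same model. The strain was C57BL/6 for the Eln and Efemp2 models and B6 albino for Lox, so the Lox model and its strain cannot be told apart, and the labels name no allele. Each of the 24 groups had 2 arrays with RNA of 8 pooled aortas each, 48 arrays in all. Whether AA and DA pools came from the same mice is not given, and p-values measure only the spread between these arrays.

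Hox genes encode homeodomain transcription factors. Genes of a cluster are switched on in the order in which they lie, so that low paralogue numbers are used towards the head and high numbers towards the tail. Genes of the same number in different clusters are paralogues with similar proteins. Smooth muscle of the ascending aorta comes largely from the neural crest and the anterior heart field, and that of the descending aorta from the somites. Smooth muscle cells are known to keep a Hox pattern of their origin.

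All values are log2 array signals, and an error after ± is the standard error (SE) from limma. The mean DA less AA of a genotype is the average of its 6 pairs, each an AA and a DA group of 1 model and stage, and so rests on 12 AA and 12 DA arrays. A gene was called when its limma p, adjusted by the Benjamini-Hochberg method over all 22180 genes, was under 0.05. In bulk tissue, fewer cells of a type and less RNA per cell cannot be told apart. Replicate arrays correlated at 0.914 to 0.993 (median 0.98). Array medians ran from 4.13 to 5.82. They stood apart in Lox E17.5 (4.13 to 4.18), Lox P1 (5.31 to 5.82) and Eln E17.5 (4.85 to 4.92). Those of Efemp2 E17.5 (4.96 to 5.04) overlapped those of Eln and Efemp2 P1 (4.97 to 5.08). How arrays were grouped for normalization is not given in the sources used here. Of the Eln and Efemp2 P1 arrays 4 had raised background, and these were both Eln WT DA P1 arrays and replicate 2 of Efemp2 WT AA P1 and DA P1. As a mark of dim signal, the 95th percentile of 1394 olfactory and vomeronasal receptor genes was taken on each array (3.88 to 5.91). Smooth muscle markers fitted the labelled tissue, with mean levels of Acta2, Tagln, Myh11, Cnn1 and Smtn between 9.23 and 11.33 on every array.

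In WT, 17 of the 36 Hox genes were higher in DA and 0 were lower. Over all genes 3.14% were higher and 2.54% lower. In KO, 16 were higher and 0 lower, with 3.31% and 1.28% of all genes. The same 16 genes were called in both genotypes, Hoxb4 was called in WT only (a difference between genotypes that was not itself called), and 19 genes were called in neither. The median DA less AA of the 36 was 0.23 in WT and 0.15 in KO, where the median of all genes was 0.006 and 0.028.

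The called genes lay in the middle of the clusters. Of the 18 members with paralogue numbers 4 to 9, 16 were called in WT and 15 in both genotypes, and Hoxa4 and Hoxd9 were called in neither. Of the 7 members numbered 1 to 3 only Hoxb3 was called, and of the 11 numbered 10 to 13 none was, in WT as in KO (limma, with Hoxd10 and Hoxd11 in WT under an unadjusted p of 0.05). These ranges were drawn after the values were seen and carry no test. By cluster, 4 of 9 Hoxa, 7 of 10 Hoxb, 5 of 9 Hoxc and 1 of 8 Hoxd members were called in WT. The paralogues numbered 6 had the largest median difference of any number, 1.73 in WT and 2.10 in KO, with number 8 next at 0.95 and 1.36, then 5 and 7 at 0.80 and 0.66 in WT and 0.93 and 0.96 in KO. The place of number 5 depends on the probe set taken for Hoxb5. A dimmer one that was not used differed by 1.49 in both genotypes, and with it number 5 would come before number 8.

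**Figure D1:**
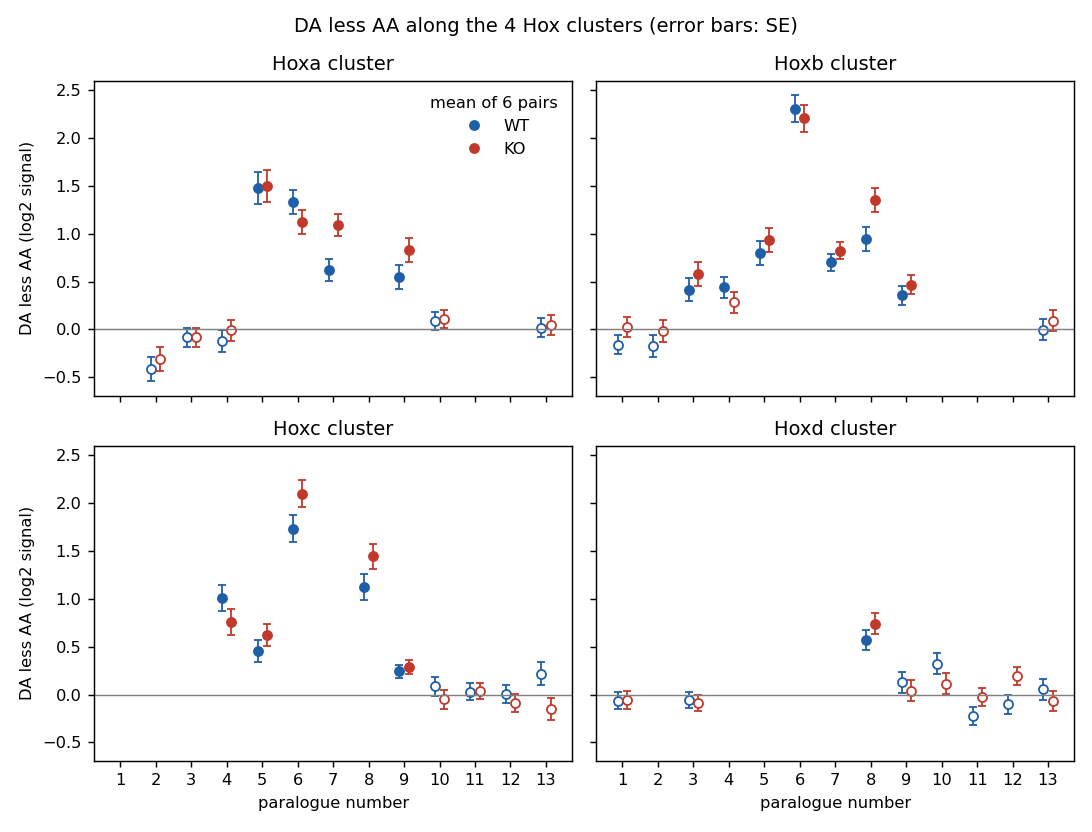
DA less AA (log2 signal, mean of 6 pairs, error bars SE) against paralogue number in the 4 clusters, WT in blue and KO in red, with filled points for genes past an adjusted p of 0.05. Filled points lie from number 3 to number 9, and the highest are Hoxb6 (2.31 in WT and 2.21 in KO) and Hoxc6 (1.73 and 2.10).

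To show what lies before the start of genes that were higher in DA together, the 250 bases upstream of the RefSeq start (GRCm38.p6, given 5′ to 3′ on the strand of the gene) follow for 4 of them, Hoxa5, Hoxa6, Hoxa7 and Hoxb8, and for Hoxa2, which was not called. Capitals mark matches to the letters TTTATG, a Cdx-type motif, TGACAG, a Meis-type motif, TGATTNAT, a Pbx-Hox motif, and TAATTA, a homeodomain core, on either strand, and matches of different motifs were allowed to overlap.
Hoxa2 (chr6:52164832-52165081, minus strand): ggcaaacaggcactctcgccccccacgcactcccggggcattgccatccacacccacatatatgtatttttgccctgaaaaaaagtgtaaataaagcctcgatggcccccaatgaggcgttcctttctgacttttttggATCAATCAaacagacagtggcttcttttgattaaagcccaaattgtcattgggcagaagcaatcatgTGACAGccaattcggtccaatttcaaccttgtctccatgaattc
Hoxa5 (chr6:52204588-52204837, minus strand): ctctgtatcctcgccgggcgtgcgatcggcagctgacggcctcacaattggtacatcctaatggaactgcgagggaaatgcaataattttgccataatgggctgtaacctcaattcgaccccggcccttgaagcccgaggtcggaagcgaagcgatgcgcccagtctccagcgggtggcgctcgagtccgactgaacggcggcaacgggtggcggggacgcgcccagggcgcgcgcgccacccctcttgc
Hoxa6 (chr6:52208673-52208922, minus strand): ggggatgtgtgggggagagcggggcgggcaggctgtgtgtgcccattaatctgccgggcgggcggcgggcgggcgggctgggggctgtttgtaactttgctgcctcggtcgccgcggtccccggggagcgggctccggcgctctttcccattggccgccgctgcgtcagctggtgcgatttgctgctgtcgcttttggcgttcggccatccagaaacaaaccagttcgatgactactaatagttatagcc
Hoxa7 (chr6:52218574-52218823, minus strand): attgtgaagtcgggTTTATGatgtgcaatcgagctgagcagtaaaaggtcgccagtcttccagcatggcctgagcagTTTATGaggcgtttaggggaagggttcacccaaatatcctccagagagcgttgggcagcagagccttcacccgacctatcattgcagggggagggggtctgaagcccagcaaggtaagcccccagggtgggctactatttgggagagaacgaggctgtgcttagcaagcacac
Hoxb8 (chr11:96281655-96281904, plus strand): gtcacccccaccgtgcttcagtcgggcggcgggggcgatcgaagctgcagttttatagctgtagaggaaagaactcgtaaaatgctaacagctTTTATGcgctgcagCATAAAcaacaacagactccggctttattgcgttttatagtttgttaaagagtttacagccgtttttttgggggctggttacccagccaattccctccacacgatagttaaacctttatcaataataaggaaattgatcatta

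Hoxa7 and Hoxb8 each held 2 Cdx-type matches in this window, and Hoxa2 held 1 Meis-type and 1 Pbx-Hox match. None of these letters was in the windows of Hoxa5 and Hoxa6, whose GC content was 63.6% and 65.2% against a median of 52.4% over all 32851 RefSeq windows of this length. The Cdx-type letters were in 10.8% of all windows, the Meis-type in 15.9%, the Pbx-Hox motif in 2.82% and the homeodomain core in 4.84%. Of 24 windows for 22 members, 5 held Cdx-type letters and 2 each of the other motifs. The called genes Hoxa9, Hoxb4, Hoxc4 and Hoxd8 also had windows, not shown, and these held none of the letters. The remaining Cdx-type windows were of Hoxd3 and Hoxd11, which were not called, and of Hoxd4, which had no probe set of its own to test. A probe set that Hoxd4 shares with Hoxd3 was higher in DA in WT (0.34, limma, adjusted p = 0.0178). No window was available for Hoxb6, Hoxc6, Hoxc8 and some other called genes. These are matches of letters and were not measured as binding.

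Hoxb6, a gene of the trunk, had the largest DA less AA of all 22180 genes in WT and ranked 4 in KO. In WT its signal was 4.14, 4.56 and 5.36 (lowest, median and highest of 12 arrays) in AA and 5.36, 7.18 and 8.16 in DA. In KO it was 3.76, 4.45 and 6.25 in AA and 5.39, 7.13 and 7.76 in DA. Both DA arrays were above both AA arrays in all 12 pairs, although over all pairs the ranges of the locations met or overlapped. The difference was 2.31 ± 0.14 in WT (adjusted p = 1.64e-13) and 2.21 ± 0.14 in KO (adjusted p = 6.08e-13). Hoxb6 was above the receptor mark on 4 of 12 AA arrays and 11 of 12 DA arrays in WT.

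Hoxc6, its paralogue in the Hoxc cluster, showed the same order of arrays. It read 2.86, 4.16 and 4.52 in WT AA and 4.53, 5.78 and 6.80 in WT DA, so that the ranges of the 12 and 12 WT arrays did not overlap. In KO it read 3.68, 3.94 and 5.31 in AA and 5.32, 6.10 and 7.55 in DA, again without overlap. DA was higher by 1.73 ± 0.14 in WT (adjusted p = 2.26e-10) and by 2.10 ± 0.14 in KO (adjusted p = 2.33e-12). The third paralogue, Hoxa6, read 2.95, 5.02 and 5.61 in WT AA and 5.09, 6.26 and 7.52 in WT DA, and 3.67, 5.06 and 5.44 in KO AA and 4.76, 6.09 and 7.19 in KO DA. Its ranges overlapped over all pairs, but both DA arrays lay above both AA arrays in 11 of 12 pairs. It was higher in DA by 1.33 ± 0.13 in WT (adjusted p = 5.29e-09) and 1.13 ± 0.13 in KO (adjusted p = 1.54e-07).

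Among the paralogues numbered 5, Hoxa5, which patterns the lung and the neck and upper thoracic skeleton, was highest in difference. In WT it read 3.79, 4.98 and 5.88 in AA and 4.92, 6.4 and 7.69 in DA. In KO it read 3.66, 4.90 and 5.78 in AA and 5.40, 6.17 and 7.37 in DA. It separated both DA from both AA arrays in all 12 pairs, with differences of 1.48 ± 0.17 in WT (adjusted p = 2.26e-07) and 1.5 ± 0.17 in KO (adjusted p = 1.59e-07). Hoxb5, which acts in the enteric neural crest, read 4.69, 5.39 and 5.98 in WT AA and 5.28, 6.11 and 6.80 in WT DA, and 5.00, 5.56 and 6.14 and then 5.58, 6.39 and 8.09 in KO. Its locations overlapped over all pairs and its difference was 0.80 ± 0.13 in WT (adjusted p = 5.83e-05) and 0.93 ± 0.13 in KO (adjusted p = 4.94e-06). A dimmer probe set of Hoxb5 that was not used differed by 1.49 in both genotypes, so the size for this gene depends on the probe set. Hoxc5 was dim, above the receptor mark on 0 of 48 arrays, with 2.11, 2.90 and 3.83 in WT AA and 2.51, 3.31 and 4.35 in WT DA, and 1.81, 3.03 and 3.27 and 2.40, 3.64 and 4.04 in KO. Its ranges overlapped widely, and it was higher by 0.45 ± 0.12 (adjusted p = 0.0139) and 0.62 ± 0.12 (adjusted p = 0.000495).

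Of the paralogues numbered 4, Hoxc4 read 3.66, 4.12 and 5.74 in WT AA and 4.63, 5.24 and 5.97 in WT DA, and 3.72, 4.39 and 5.14 and 4.10, 5.24 and 5.97 in KO. It was higher in DA by 1.01 ± 0.13 in WT (adjusted p = 3.62e-06) and 0.76 ± 0.13 in KO (adjusted p = 0.000277), with ranges that overlapped. Hoxb4, known from blood stem cells, read 4.55, 5.20 and 6.24 in WT AA and 4.82, 5.32 and 7.06 in WT DA, ranges that lay largely over each other. In KO it read 4.06, 5.42 and 6.09 in AA and 4.84, 5.41 and 6.69 in DA. Its difference was 0.44 ± 0.11 in WT (adjusted p = 0.0106) and 0.29 ± 0.11 in KO (adjusted p = 0.16). Hoxa4 differed by -0.12 ± 0.11 in WT and -0.01 ± 0.11 in KO, without a call.

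Hoxa7 and Hoxb7, of trunk identity, were both called. Hoxa7 read 4.13, 4.83 and 5.33 in WT AA and 4.19, 5.41 and 6.18 in WT DA, and 4.25, 4.58 and 5.29 and 5.14, 5.71 and 6.26 in KO. Its ranges overlapped in both genotypes, and both DA arrays were above both AA arrays in 4 of 6 WT pairs and in all 6 KO pairs. The difference was 0.62 ± 0.11 in WT (adjusted p = 0.00046) and 1.09 ± 0.11 in KO (adjusted p = 3.19e-08). Hoxb7 read 3.25, 3.67 and 4.38 in WT AA and 3.54, 4.41 and 5.11 in WT DA, and 3.0, 3.51 and 4.16 and 3.52, 4.34 and 5.31 in KO, and was above the receptor mark on 3 of 48 arrays, all DA. Its ranges overlapped, and DA was higher by 0.70 ± 0.09 (adjusted p = 2.07e-06) and 0.82 ± 0.09 (adjusted p = 1.04e-07).

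All 3 paralogues numbered 8 were called. Hoxc8, which patterns thoracic vertebrae and motor neurons, read 2.66, 4.22 and 4.37 in WT AA and 3.94, 5.06 and 6.19 in WT DA, and 2.84, 3.96 and 5.05 and 4.33, 5.34 and 6.34 in KO. It overlapped between locations over all pairs but not within 11 of 12 pairs, at 1.12 ± 0.13 in WT (adjusted p = 3.57e-07) and 1.45 ± 0.13 in KO (adjusted p = 2.63e-09). Hoxb8 read 2.63, 3.57 and 4.18 in WT AA and 3.15, 4.41 and 5.92 in WT DA, and 2.44, 3.42 and 4.49 and 3.55, 4.74 and 5.98 in KO. It was above the receptor mark on 0 AA and 10 DA arrays of 24 each, and was higher in DA by 0.95 ± 0.12 (adjusted p = 2.97e-06) and 1.36 ± 0.12 (adjusted p = 3.32e-09). Hoxd8, the one Hoxd gene called, read 4.5, 5.61 and 6.49 in WT AA and 5.40, 6.11 and 7.16 in WT DA, and 4.48, 5.46 and 6.06 and 5.59, 6.00 and 7.02 in KO. With overlapping ranges it differed by 0.57 ± 0.11 (adjusted p = 0.00077) and 0.74 ± 0.11 (adjusted p = 2.01e-05).

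The paralogues numbered 9 had smaller differences. Hoxa9, known from blood progenitors and leukaemia, read 3.80, 4.49 and 5.12 in WT AA and 3.71, 4.96 and 6.77 in WT DA, and 3.48, 4.38 and 4.82 and 4.38, 4.90 and 6.24 in KO. It differed by 0.55 ± 0.12 (adjusted p = 0.00455) and 0.83 ± 0.12 (adjusted p = 2.17e-05), and both its DA arrays were above both AA arrays in 3 WT and 6 KO pairs. Hoxb9 read 3.71, 4.32 and 4.84 in WT AA and 3.72, 4.89 and 5.18 in WT DA, and 3.44, 4.39 and 5.04 and 3.73, 4.89 and 5.5 in KO, ranges that overlapped, although the median of WT DA was above every WT AA array. Its difference was 0.36 ± 0.10 (adjusted p = 0.0258) and 0.47 ± 0.10 (adjusted p = 0.00217). Hoxc9, which sets thoracic motor neuron columns, read 3.68, 4.37 and 4.61 in WT AA and 3.94, 4.5 and 4.92 in WT DA, and 3.67, 4.30 and 4.73 and 3.77, 4.54 and 4.90 in KO. Its ranges overlapped, and it differed by 0.24 ± 0.07 (adjusted p = 0.0323) and 0.29 ± 0.07 (adjusted p = 0.00927). Hoxd9 differed by 0.13 ± 0.11 and 0.04 ± 0.11, without a call.

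At the head end of the clusters, Hoxb3 was called, with 3.80, 5.30 and 6.6 in WT AA and 4.33, 5.66 and 7.11 in WT DA, and 3.92, 5.22 and 6.16 and 4.65, 5.66 and 6.68 in KO. Its ranges overlapped, and it was higher in DA by 0.42 ± 0.12 (adjusted p = 0.0376) and 0.58 ± 0.12 (adjusted p = 0.00231). The WT calls of Hoxb3, Hoxb9, Hoxc5 and Hoxc9 did not survive all settings. Hoxc5 was lost in 1 of 33 alternative fits, with only the WT arrays (adjusted p = 0.0808). The other 3 were lost in 14 of 34, 12 of 34 and 17 of 33 alternative fits, with adjusted p up to 0.129, 0.23 and 0.314, and 13, 8 and 13 of these fits left out 1 WT array. Without the 4 high-background arrays Hoxb9 and Hoxc9 were not called and 15 of the 36 remained called higher in WT and 16 in KO.

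Hoxa2, the selector gene of the hyoid arch, went the other way. It read 5.94, 6.69 and 7.96 in WT AA and 5.77, 6.22 and 7.74 in WT DA, and 5.68, 6.35 and 7.38 and 5.36, 6.22 and 7.23 in KO. DA was below AA on the mean of each of the 12 pairs, though the ranges lay over each other. Its difference was -0.41 ± 0.13 in WT (adjusted p = 0.0541) and -0.31 ± 0.13 in KO (adjusted p = 0.231), so it was not called. The WT value passed in 9 of 34 alternative fits, with adjusted p from 0.0129 to 0.318. Hoxa3, Hoxb1, Hoxb2, Hoxd1 and Hoxd3 had differences between -0.17 and -0.06 in WT and between -0.09 and 0.02 in KO and were not called.

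**Figure D2:**
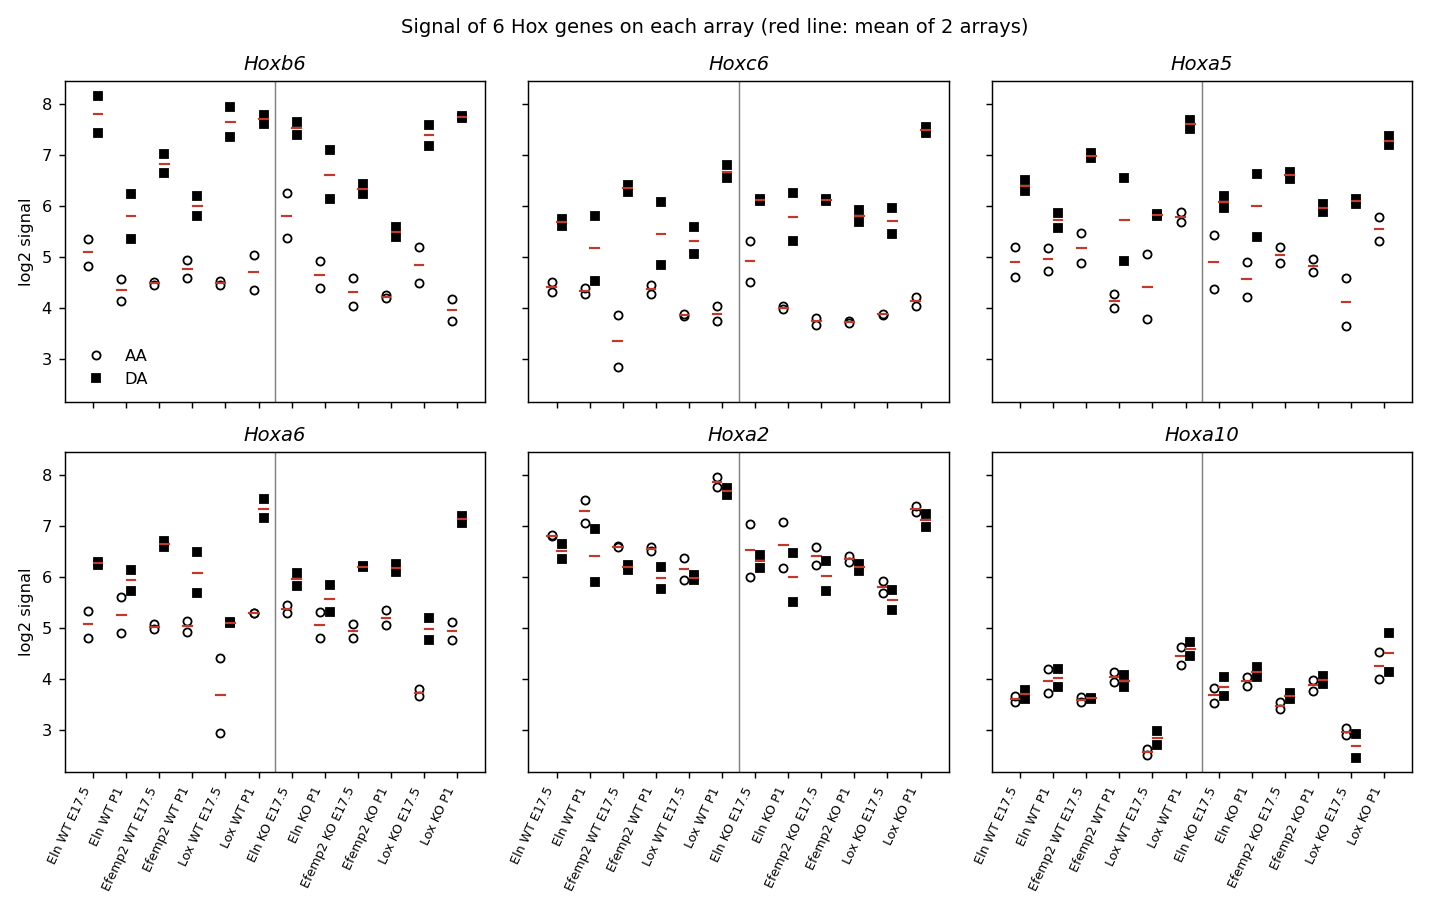
Log2 signal of Hoxb6, Hoxc6, Hoxa5, Hoxa6, Hoxa2 and Hoxa10 on every array (open circles AA, filled squares DA, red line the mean of 2 arrays) for the 12 sets of model, genotype and stage, WT left of the grey line. Squares lie above circles in every set for Hoxb6, Hoxc6 and Hoxa5, while for Hoxa2 each DA mean is below its AA mean and for Hoxa10 they lie together.

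The tail end of the clusters was dim at both locations. Of the 11 members numbered 10 to 13, only Hoxc10 and Hoxd10 had a group mean of at least 4.94, the median over single-symbol probe sets. Their differences ran from -0.23 (Hoxd11) to 0.32 (Hoxd10) in WT and from -0.15 (Hoxc13) to 0.19 (Hoxd12) in KO. Hoxa10, which patterns the lumbar region and uterus, read 2.52, 3.70 and 4.62 in WT AA and 2.72, 3.82 and 4.72 in WT DA, and was above the receptor mark on 0 of 48 arrays. Hoxa13, Hoxb13 and Hoxd13, of digits, gut end and tail, were above it on 1, 0 and 0 arrays. Hoxd10 was above it on 7 AA and 10 DA arrays of 12 each in WT, with a difference of 0.32 ± 0.11 (adjusted p = 0.0874). At these levels a difference may lie under what the arrays can show. Over all members, 22 of 36 reached 4.94 in some group, and the called Hoxc5 and Hoxc9 did not.

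Not 1 of the 36 genes differed between KO and WT in its mean DA less AA (limma, smallest adjusted p = 0.226; 0.153% of all genes did). At an unadjusted p under 0.05 there were 4, Hoxa7 (0.47), Hoxb8 (0.41), Hoxd12 (0.30) and Hoxc13 (-0.37). The 95% intervals bound the differences that remain possible. For Hoxb6 the interval of KO less WT was -0.50 to 0.30, for Hoxa5 -0.47 to 0.50, for Hoxc6 -0.04 to 0.77 and for Hoxc8 -0.06 to 0.70. For Hoxa7 it was 0.15 to 0.80 before adjustment over genes. The intervals reached 0.318 to each side at the median over members and at most 0.486. Over the 36 genes, which are not independent replicates, the WT and KO differences correlated at Pearson r = 0.955 and Spearman rho = 0.874, and the genotypes share no arrays.

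**Figure D3:**
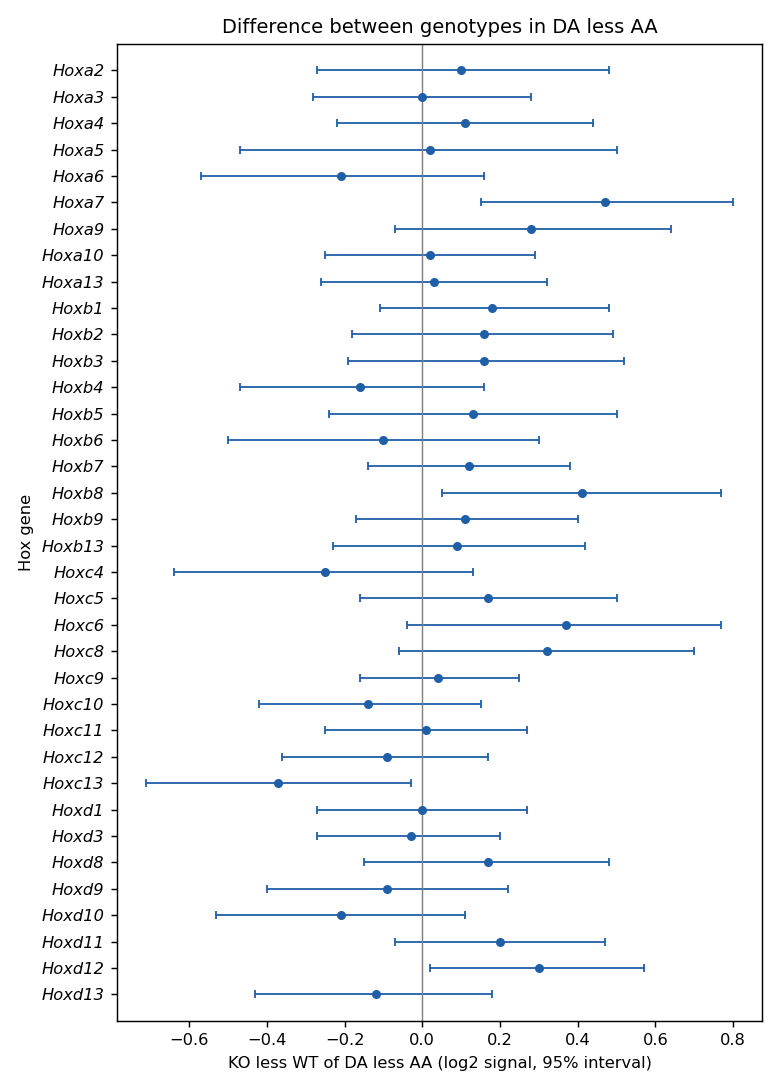
KO less WT of the mean DA less AA (log2 signal, points) with its unadjusted 95% interval (bars) for the 36 Hox genes by cluster and paralogue number. The points run from -0.37 to 0.47, most intervals include 0, and none of the genes passed an adjusted p of 0.05.

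Within single pairs, of 2 AA and 2 DA arrays each, 51 of 432 tests were called, 47 higher and 4 lower in DA. Values in the Lox P1 pairs are given less the median of all genes, 0.155 in WT and 0.186 in KO, since the deposited values were shifted there. Hoxb6 was called in 10 of 12 pairs, Hoxc6 in 7, Hoxb7 and Hoxc8 in 6 each, Hoxa6 and Hoxb8 in 4, Hoxa5 in 3, Hoxc4 in 2 and Hoxa7, Hoxa9, Hoxb4, Hoxb5 and Hoxc9 in 1. There were 8 calls in Eln WT P1 (25.4% of all genes called) and 7 each in Lox WT P1 (0.234%), Eln KO P1 (0.428%) and Lox KO P1 (0.257%). In Efemp2 WT E17.5 there were 6 (0.762%), in Lox KO E17.5 4 (0.194%), and in Lox WT E17.5, Efemp2 KO E17.5 and Efemp2 KO P1 3 each (0.266%, 0.302% and 0.316%). Eln WT E17.5 had 2 (0.104%), Eln KO E17.5 had 1 (0.0406%) and Efemp2 WT P1 had 0 (limma, smallest adjusted p = 0.0574, 7 at an unadjusted p under 0.05; 0.803% of all genes).

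Hoxb6 in single pairs ranged from 1.23 in Efemp2 WT P1 to 3.15 in Lox WT E17.5 in WT, and from 1.26 in Efemp2 KO P1 to 3.59 in Lox KO P1 in KO. In Lox KO P1 the AA arrays read 4.18 and 3.76 and the DA arrays 7.76 and 7.73. In Efemp2 KO P1 they read 4.26 and 4.20 against 5.59 and 5.39, so the pair was separated on a smaller scale. Hoxc6 ran from 0.83 in Eln WT P1 to 2.99 in Efemp2 WT E17.5 in WT and from 1.21 in Eln KO E17.5 to 3.16 in Lox KO P1 in KO. Its Efemp2 WT E17.5 arrays read 3.86 and 2.86 in AA and 6.42 and 6.27 in DA, the widest WT gap for this gene.

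**Figure D4:**
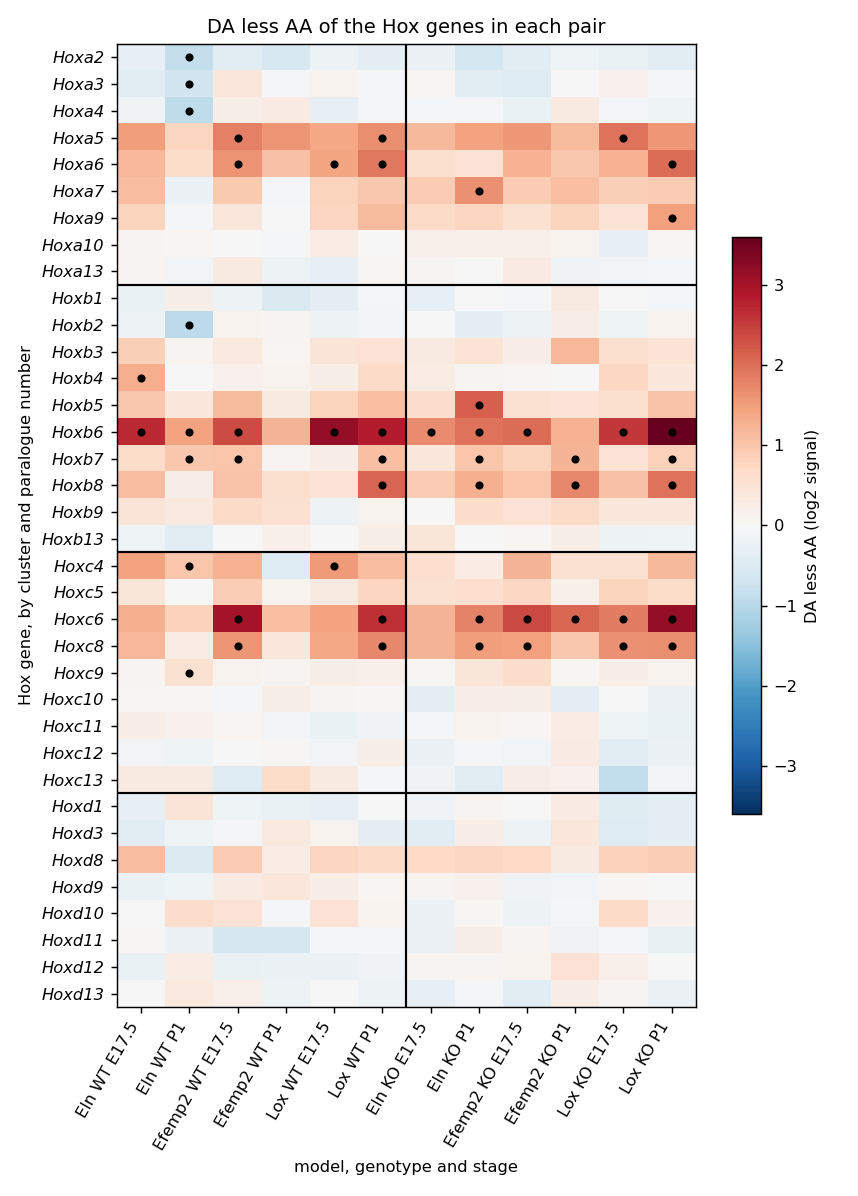
DA less AA (log2 signal, colour; Lox P1 pairs less the median of all genes) of the 36 Hox genes, by cluster and paralogue number, in the 12 pairs of model, genotype and stage, with dots for adjusted p under 0.05. The dark rows are Hoxb6 (1.23 to 3.59) and Hoxc6 (0.83 to 3.16), and the dots on blue cells are 4 genes in Eln WT P1.

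Eln WT P1 stood apart, with 4 Hox genes higher and 4 lower where 25.4% of all genes were called, and both of its DA arrays had raised background. The genes called lower were Hoxa2 (-0.86), Hoxa3 (-0.69), Hoxa4 (-0.92) and Hoxb2 (-0.95). Those called higher were Hoxb6 (1.44), Hoxb7 (0.98), Hoxc4 (1.01) and Hoxc9 (0.56). With the array background as a covariate 3 were higher and 0 lower, and without the 4 high-background arrays this pair cannot be formed. The share of members is near that of all genes, and the part of the background was not tested.

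Over pairs, both DA arrays lay above both AA arrays in all 6 WT pairs for 4 members, Hoxa5, Hoxa6, Hoxb6 and Hoxc6 (0.284% of all genes), and in all 6 KO pairs for 11 (0.73%). In all 12 pairs this held for 3, Hoxa5, Hoxb6 and Hoxc6 (0.162%). The pair difference was above 0 in all 12 pairs for 11 members (0.956%), and these were Hoxa5, Hoxa6, Hoxb3, Hoxb5, Hoxb6, Hoxb7, Hoxb8, Hoxc5, Hoxc6, Hoxc8 and Hoxc9. None of the 36 members, and none of the 22180 genes with a probe set of a single symbol, had every DA array above every AA array over all 48 arrays (0%).

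By stage, 13 members were higher in DA in WT at E17.5 (1.38% of all genes) and 10 at P1 (4.58%), and 11 (1.52%) and 14 (1.47%) in KO. The difference between stages was tested itself. No member was called in WT (limma, smallest adjusted p = 0.134; 0.14% of all genes) or in KO (smallest adjusted p = 1; 0%). At an unadjusted p under 0.05, 5 were smaller at P1 in WT, Hoxb6 (-0.84 ± 0.28), Hoxc4 (-0.81 ± 0.27), Hoxd8 (-0.73 ± 0.22), Hoxa7 (-0.66 ± 0.23) and Hoxc8 (-0.54 ± 0.26), and 6 were larger at P1 in KO, among them Hoxb8 (0.72 ± 0.25) and Hoxb5 (0.70 ± 0.25). Each of the 4 arrays with raised background is a WT array of P1.

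KO less WT of DA less AA was also tested in each model and stage. There were 3 calls, all in Eln P1, where 9.68% of all genes were called. The share of members called there, 8.33%, was near that of all genes. Hoxa7 read 5.13 and 4.97 in WT AA, 4.19 and 5.5 in WT DA, 4.25 and 4.56 in KO AA and 6.26 and 5.84 in KO DA, and only the KO locations separated. The difference of differences was 1.84 ± 0.39 (adjusted p = 0.00528). Hoxb5 read 5.17 and 5.71, 5.52 and 6.09, 5.47 and 5.00, and 8.09 and 6.68 in the same order, with 1 KO DA array far above the other, at 1.78 ± 0.44 (adjusted p = 0.0128). Hoxd8 read 5.77 and 6.49, 5.88 and 5.40, 5.48 and 5.23, and 5.85 and 6.37, so that the WT arrays of the locations overlapped, at 1.24 ± 0.38 (adjusted p = 0.0365). Both WT DA arrays had raised background, and from the arrays of Eln P1 alone the calls were 0 (adjusted p = 0.17, 0.211 and 0.251). With the background as a covariate only Hoxa7 was called. Hoxb5 was also lost without WT AA replicate 2, WT DA replicate 1 or KO DA replicate 1, and Hoxd8 after cyclic loess and without WT AA or WT DA replicate 2, either KO AA array or KO DA replicate 2. In the other 5 sets of model and stage 0 members were called (limma, smallest adjusted p = 0.221, with 0 to 7 at an unadjusted p under 0.05), where 0% to 0.0225% of all genes were.

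Levels of the Hox genes themselves differed little between KO and WT. Averaged over location and stage, 0 members were called in Eln (limma, smallest adjusted p = 0.0705 for Hoxb5, 6 at an unadjusted p under 0.05; 2.26% of all genes) and 0 in Efemp2 (smallest adjusted p = 0.191, 2 unadjusted; 2.64%). In Lox 1 was called, Hoxc9 (0.884% of all genes), at -0.24 less the median of all genes, or -0.34 as fitted (limma, adjusted p = 0.0481). At E17.5 Hoxc9 read 4.25 and 4.04 in Lox WT AA, 4.30 and 4.44 in WT DA, 3.72 and 3.69 in KO AA and 3.77 and 4.09 in KO DA. At P1 it read 4.49 and 4.61, 4.89 and 4.91, 4.47 and 4.21, and 4.65 and 4.64. As read, KO was below WT at each location and stage. At P1 the median of all genes was itself shifted in Lox KO less WT, by -0.196 in AA and -0.178 in DA. Little of the P1 drop of Hoxc9 lay beyond that shift. At E17.5 these medians were -0.019 and 0.012. This call was lost in 18 of 25 alternative fits. With 1 Lox array left out it was kept only without WT AA E17.5 replicate 2, KO DA E17.5 replicate 2 or KO AA P1 replicate 1. In single pairs Hoxb5 (1.58), Hoxa7 (1.2) and Hoxc8 (1.07) were higher in KO in Eln DA P1. These were 8.33% of members where 21.9% of all genes were called, and both WT arrays had raised background. Hoxb7 was lower by -0.84 in Efemp2 AA P1, where WT replicate 2 had raised background. That was 2.78% of members against 2.64% of all genes.

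At P1 the DA less AA of some Hox genes was larger in the Lox model. Averaged over WT and KO and less the median of all genes, Lox exceeded Eln by 1.56 ± 0.34 for Hoxc6 (adjusted p = 0.0269), 1.49 ± 0.34 for Hoxb6 (adjusted p = 0.0269), 1.32 ± 0.31 for Hoxa6 (adjusted p = 0.0269) and 1.24 ± 0.31 for Hoxb8 (adjusted p = 0.0313), 4 of 36 where 0.978% of all genes were called. Lox exceeded Efemp2 by 1.97 ± 0.34 for Hoxb6 (adjusted p = 0.00964; 0.0316% of all genes), the only member called. The p-values belong to the differences as fitted, before the median was taken off. Efemp2 against Eln gave 0 calls at P1 (smallest adjusted p = 0.127, 5 at an unadjusted p under 0.05; 1.61% of all genes). At E17.5 0 members were called for Lox against Eln or Efemp2 (limma, smallest adjusted p = 0.998, with 1 and 4 at an unadjusted p under 0.05; 0% of all genes). After cyclic loess the 4 Lox against Eln calls were lost (adjusted p from 0.12 to 0.216). All 4 were also lost without Eln WT DA replicate 1, Lox WT AA replicate 1, Lox WT DA replicate 1, Lox KO AA replicate 2 or Lox KO DA replicate 1 of P1. All but Hoxb6 were lost without Eln KO DA replicate 1 or Lox WT AA replicate 2, all but Hoxb8 without Lox KO AA replicate 1, Hoxb8 and Hoxc6 without Eln KO AA replicate 2, and Hoxb8 without Eln WT AA replicate 2. The Hoxb6 call against Efemp2 was lost without Lox WT DA replicate 2 or Lox KO AA replicate 2. The Lox model, its strain and the levels of its arrays coincide and cannot be told apart. The Eln and Efemp2 P1 pairs also hold the 4 arrays with raised background, and without these Lox against Eln cannot be formed at P1. The part of the background was not tested. These comparisons between models were added after other results had been seen.

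Hox proteins bind DNA with Pbx, Meis and Pknox partners, Cdx proteins and retinoic acid act on the clusters in the embryo, and Polycomb and trithorax proteins keep their state. Of 28 such genes measured, 1 was called in WT, where 3.14% of all genes were higher and 2.54% lower, so this count is near the share of all genes. It was Meis1, which was lower in DA (-0.32 ± 0.08, adjusted p = 0.0106) and at -0.23 ± 0.08 in KO (limma, adjusted p = 0.0974). Meis1 was not called without the 4 high-background arrays. Its relative Meis2 was at -0.34 ± 0.11 (adjusted p = 0.0525). In KO 1 was called, where 3.31% of all genes were higher and 1.28% lower. It was Crabp1, a retinoic acid binding protein gene that was higher in DA (0.92 ± 0.19, adjusted p = 0.00139) and at 0.17 ± 0.19 in WT (adjusted p = 0.684). Neither Meis1 nor Crabp1 differed between genotypes past the threshold (limma, adjusted p = 0.781 and 0.24). The list medians in WT were -0.04 for 8 Pbx, Meis and Pknox genes, 0.04 for 3 Cdx genes, -0.05 for 9 retinoic acid genes and -0.09 for 8 Polycomb and trithorax genes.

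The clusters also hold noncoding RNAs. Of 17 cluster RNAs and flanking genes measured, 1 was called in each genotype. Over all genes 3.14% were higher and 2.54% lower in WT, and 3.31% and 1.28% in KO, so these counts are near the share of all genes. Hoxd3os1 was higher in DA in WT (0.40 ± 0.10, adjusted p = 0.0127) and at 0.28 ± 0.10 in KO (adjusted p = 0.131). Hoxaas3 was higher in KO (0.48 ± 0.08, adjusted p = 0.000124) and at 0.18 ± 0.08 in WT (adjusted p = 0.205). Neither differed between genotypes past the threshold (limma, adjusted p = 0.759 and 0.272). The WT call of Hoxd3os1 was lost after cyclic loess, from WT arrays alone and without the 4 high-background arrays. The 10 flanking genes, which lie just outside the clusters, had a median of 0.05 in WT and 0.08 in KO, with 0 calls in each (limma, all at an unadjusted p above 0.05).

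The clusters encode 2 miRNA families that are known to act on Hox transcripts. Their mature sequences from RefSeq (GRCm38.p6) are shown because the members of each family share a seed, bases 2 to 8, given in capitals.
mmu-miR-10a-5p: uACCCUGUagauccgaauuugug
mmu-miR-10b-5p: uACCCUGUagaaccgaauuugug
mmu-miR-196a-5p: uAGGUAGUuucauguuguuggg
mmu-miR-196b-5p: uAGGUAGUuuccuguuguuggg
The probe sets of Mir10b, Mir196a-1, Mir196a-2 and Mir615 differed between DA and AA by -0.12 to 0.08 in WT and -0.22 to 0.10 in KO, and none was called. Mir10b read 2.05 in AA and 1.94 in DA in WT, and was not above the receptor mark on any array. These probe sets read the gene's RNA after whole-transcript amplification and do not measure the mature miRNA.

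Markers of other cells moved along the aorta too. All 4 of 4 measured sympathetic neuron and chromaffin markers were higher in DA in both genotypes, Dbh by 2.08 and 2.53, Stmn2 by 1.30 and 1.64, Prph by 0.96 and 1.02 and Th by 0.87 and 1.15. The mean level of the list ran from 4.46 to 5.58 in WT AA and from 5.02 to 8.60 in WT DA, and from 4.44 to 7.11 and 5.61 to 8.60 in KO. In 10 of the 12 pairs the list median was between 0.83 and 2.23, with Hoxb6 between 1.26 and 3.59 and Hoxc6 between 1.21 and 3.16. In Eln WT P1 and Efemp2 WT P1, the pairs that hold the 4 arrays with raised background, the list medians were 0.20 and 0.03, Hoxb6 was at 1.44 and 1.23 and Hoxc6 at 0.83 and 1.09. In KO, 4 of 5 endothelial markers were higher in DA, Kdr (1.11), Emcn (0.69), Cdh5 (0.66) and Pecam1 (0.28). In WT only Kdr was called (0.88), with Emcn at -0.13, Cdh5 at 0.23 and Pecam1 at 0.03. The genotypes differed past the threshold for Emcn (limma, adjusted p = 0.0251). They did not for Cdh5, Pecam1 and Kdr (limma, adjusted p = 0.208, 0.313 and 0.658), nor for any marker of the other lists. The endothelial list ran from 6.86 to 9.2 in WT AA, 7.15 to 9.61 in WT DA, 6.63 to 8.68 in KO AA and 7.34 to 9.21 in KO DA. Of 5 brown fat markers Fabp4 was higher in WT (0.45), and Fabp4 (0.54) and Adipoq (0.97) in KO. Of 5 heart muscle markers Myl7 (1.09) and Myh6 (1.03) were higher and Tnnt2 (-0.97) lower in WT, and Nppa (-1.26) and Tnnt2 (-1.09) lower in KO. Lower in DA in both genotypes were Acan of 5 cartilage markers (-1.01 and -0.64), Cd8a of 3 thymocyte markers (-0.61 and -0.66) and Msln of 5 mesothelium markers (-0.93 and -0.59). Called in WT and not in KO, Upk3b of the mesothelium list (-0.48) and Dpt of 5 fibroblast markers (-0.48) were lower and Pax8 of 4 adrenal and kidney markers (0.29) was higher, and none of the 3 differed between genotypes past the threshold (limma, adjusted p = 0.671, 0.147 and 0.515). Pax8 was dim, at 3.44 in AA and 3.73 in DA in WT, and was above the receptor mark on 0 AA and 0 DA arrays. None of the 5 skeletal muscle and 4 airway and gut markers was called (limma, smallest adjusted p = 0.0559 in WT and 0.0741 in KO). Of 5 smooth muscle markers 1 was higher in WT (Myh11, 0.32) and 1 lower in KO (Cnn1, -0.24). Of 5 outflow tract and ascending aorta markers 2 were lower in DA in WT, Tbx20 (-1.12) and Hand2 (-0.79). In KO Tbx20 was lower (-0.89) and Isl1 higher (0.64). The part of these cells in the Hox differences was not tested.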

How the data were processed

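Per the submitters' processing notes, the deposited log2 values were made by the authors with RMA in Affymetrix Expression Console. Versions, array name and genome build are not given in the sources used here. RNA was amplified from pooled aortas, per the labels' protocols. Of 41345 probe sets, 23521 carried 1 symbol, and the one with the highest mean stood for each of 22180 genes. Groups came from sample titles. In limma 3.58.1 (R 4.3.3) 24 group means were fitted to all 48 arrays, with 24 residual degrees of freedom and eBayes with trend, without a filter on low values, and 48 contrasts were taken. No array was left out. Where the median of all genes went beyond 0.1 in size, values are given less it. Probe sets with several symbols were fitted apart. Per-array values are given for members called in the mean contrasts and for the brightest member of each cluster, and list genes are named where called. The members, lists and settings were chosen with earlier results of these data known. Alternatives were a filter, other variances, cyclic loess, fewer arrays, the mean over probe sets, background, replicate blocks (statmod 1.5.0) and single arrays left out. Same-numbered AA and DA arrays deviated at correlations of -0.24 to 0.34, so the numbers were not taken as pairs. The fit was tested on simulated data.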

Additional observations from a re-analysis of the deposited data

Results flagged for a closer look

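The probe set that carries the symbols Mira and Hoxa7, which cannot be given to 1 gene, was not among the members. In WT it read 3.04, 4.28 and 5.35 in AA and 7.23, 8.06 and 9.46 in DA (lowest, median and highest of 12 arrays), and in KO 3.70, 4.28 and 6.6 and 7.70, 8.10 and 9.31. The ranges of the locations did not overlap in either genotype. Its DA less AA was 3.85 ± 0.17 in WT and 3.82 ± 0.17 in KO (limma, adjusted p = 8.66e-16 and 1.04e-15), the largest WT difference in size of 1814 probe sets with several symbols, of which 322 (17.8%) were called higher in WT and 21 in KO. Hoxa7's own probe set differed by 0.62 and 1.09.

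A probe set of Hoxd4 and Hoxd3 was higher in DA by 0.34 in WT (adjusted p = 0.0178) and by 0.06 in KO (adjusted p = 0.854). A probe set of Hoxa3 and 5730446D14Rik differed by -0.41 in WT (adjusted p = 0.0178) and -0.21 in KO (adjusted p = 0.574). Both were noted because these probe sets were not among those compared. On their own probe sets Hoxd3 and Hoxa3 differed by -0.06 and -0.08 in WT and -0.09 and -0.08 in KO, without a call. Neither shared set differed between genotypes past the threshold (limma, adjusted p = 0.174 and 0.45). The remaining shared sets were not called. Those of Hoxa11 and Hoxa11os differed by -0.03 and 0.02 in WT and -0.17 and -0.02 in KO. Hoxb3 with Hoxb2 was at -0.14 and 0, and Mir10a with Hoxb4 at 0.24 and 0.51.

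Differences between groups drew attention to Eln P1, where KO less WT of DA less AA was 1.84 for Hoxa7, 1.78 for Hoxb5 and 1.24 for Hoxd8. There 8.33% of members and 9.68% of all genes were called, and both WT DA arrays had raised background. From the arrays of Eln P1 alone none of these genes was called. Between models at P1, Lox exceeded Eln in DA less AA by 1.32 for Hoxa6, 1.49 for Hoxb6, 1.24 for Hoxb8 and 1.56 for Hoxc6, and Lox exceeded Efemp2 by 1.97 for Hoxb6, all less the median of all genes. The Eln and Efemp2 P1 pairs hold all of the arrays with raised background.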

How the results depend on the processing

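No sign changed among the differences refitted under every alternative, which were the called DA less AA values of members, Hoxa2, Hoxb4 and the called cofactor and cluster RNA genes, and the calls between models, of Eln P1 and of Hoxc9 in Lox. The count of members higher in DA was 13 to 17 in WT and 14 to 16 in KO over the settings that keep every array or drop the 4 high-background ones, and with 1 array left out 14 to 18 were called in WT (0 to 1 of them lower) and 16 to 17 in KO. The fixed and the random replicate block gave 16 and 17 members higher in WT, each with Hoxa2 called lower (17 and 18 calls), and 16 in KO. Hoxa2 was also called lower in WT with the filter and from WT arrays alone. Cyclic loess gave 15 members higher and 1 lower in WT, and there Hoxa2 was not called. The fixed block lost Hoxb9 and Hoxc9 in WT. The main fit did not take the numbers as pairs, and whether they mark pairs is not given. In KO none of the 16 calls was lost in any setting that tested the gene. The filter removes 14 members before the test. KO less WT in each model (1 call) came to 0 with the filter, robust variances, cyclic loess, the background covariate and the fixed replicate block, to 2 with the mean over probe sets and without the 4 high-background arrays, and to 0 to 3 with 1 array left out. KO less WT of DA less AA per model and stage (3 calls) came to 0 with only the arrays of the comparison, 1 with the covariate and 0 without the 4 arrays, which removes Eln P1, and to 1 to 4 with 1 array left out. The cofactor list (1 call) came to 2 with the filter and cyclic loess, 3 with the fixed and 2 with the random replicate block, and 1 to 4 with 1 array left out, and without the 4 arrays its 1 call was higher, not lower. The cluster RNA list (1 call) came to 0 after cyclic loess, with only the arrays of the comparison and without the 4 arrays, and stayed at 1 with 1 array left out. Single pairs gave 44 to 59 calls, P1 less E17.5 in WT 0 to 1 (the 1 without Eln WT DA P1 replicate 2) and KO less WT of the mean DA less AA 0. The causes were not tested. With 2 arrays a group, small differences of dim genes lie below what can be shown.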
